A study of Mus musculus with 12 samples.

Results

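Detoxification enzymes were followed here as 128 genes of 5 families: 70 cytochrome P450 genes (CYP), 20 glutathione S-transferase genes (GST), 15 UDP-glucuronosyltransferase genes (UGT), 13 aldo-keto reductase genes of the AKR1 group and 10 sulfotransferase genes (SULT). They were all genes on the array whose name began with Cyp, Ugt, Sult, Gst or Akr1 in the form of an enzyme family, without Cyp26a1, Cyp26b1 and Cyp51. They were covered by 180 of the 41174 probes and made up 128 of the 27845 genes on the array, each read from its probe with the highest mean yolk sac signal. The study measured RNA of mouse yolk sacs on 12 arrays of 2 colours, 3 biological replicates in each of 4 groups. These were wild type and Baf250a/Arid1a V1068G/V1068G yolk sacs, each at E8.5 or E9.5 (days of embryonic development), and all were labelled with a CD1 background. Arid1a, also called Baf250a, belongs to SWI/SNF complexes, which move nucleosomes, and V1068G is a single amino acid change that both copies carry in the mutant. Each array also held one common reference RNA of whole wild-type neonatal mice of a mixed 129Sv and C57BL/6 background. Yolk sac RNA carried the dye Cy5 and the reference Cy3 on every array, so a value below is the log2 ratio of yolk sac over reference, and a dye effect of a probe cannot be told apart from its ratio to the reference.

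Foreign and endogenous fat-soluble compounds are handled in steps. Cytochrome P450 enzymes and some aldo-keto reductases oxidise or reduce them, and transferases then attach glutathione, glucuronic acid or sulfate, which makes the product easier to export. Many of the same enzymes also make or break down steroids, bile acids, vitamin D and fatty acid mediators. The liver is the main site after birth, and the visceral yolk sac, whose outer layer is an absorptive endoderm, does some liver-like work in the embryo before the liver forms.

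Per the file headers, replicates 2 and 3 carry the same slide number and positions, although each has its own scan, and within a group they correlated no more closely than other replicates did (0.985 to 0.991 against 0.986 to 0.994). They were counted as separate samples, as labelled, and the counts with both averaged into 1 sample are among the alternatives. The arrays were scanned in 3 sets of 4, replicate 1, 2 or 3 of every group, and each group kept its place on the slide, so that place and group cannot be told apart. Between 46.7% and 50.1% of spots for genes were well above background in Cy5, and 55.0% to 61.2% in Cy3. Genes of the visceral endoderm, the absorptive outer layer, were read with a list of 12 (Afp, Ttr, Apoa1 and others), and all 12 were detected. Their mean log2 ratio lay between 1.36 and 1.60 in wild type and 1.52 and 1.55 in mutant at E8.5, and between 1.97 and 2.07 in wild type and 1.85 and 2.09 in mutant at E9.5, and 6 of the 12 rose with stage in each genotype and 0 were called with genotype. The part of this rise in the results below was not tested. In whole tissue, more endoderm cells and more RNA per cell cannot be told apart. Replicate 3 of mutant E8.5, wild type E9.5 and mutant E9.5 were high in trophoblast transcripts, with a mean of 2.80 to 3.48 over the 3 of 7 listed genes that were tested, against 0.57 to 1.29 on the other 9 arrays. This rested on Prl4a1 (3.74 to 5.70 against 0.26 to 1.53) and Prl3d1 (3.32 to 4.22 against 0.55 to 1.77), since Cdx2 was no higher there (0.53 to 0.77 against 0.38 to 1.07), and the defining genes Tpbpa and Gcm1 were not kept. Wild type E8.5 replicate 2 was high in heart and neural transcripts (4 of 7 tested, mean -0.70 against -2.31 to -1.67 elsewhere). The neural part rested on Hes5 (0.06 against -1.55 to -1.41 elsewhere), since Sox1 and Pax6 were not tested. The heart gene Myl7 (0.01 there) was also raised in wild type E8.5 replicate 3, at -1.47 against -3.14 to -2.50 on the remaining arrays. Of the 3 tested genes of the decidual list, Prl8a2 ranged from 0.69 to 3.53 over the arrays and was called in no contrast. Des was not called either, while Dcn rose with stage by 0.97 in wild type and 0.94 in the mutant. Of 6 mesoderm genes, 4 were higher in the mutant at E8.5 and 0 at E9.5. With stage 3 of them rose in each genotype, and 2, Pdgfra and Hand1, fell in the mutant. Of 5 parietal endoderm genes, 3 rose with stage in wild type and 2 in the mutant, and Sparc was higher in the mutant at both stages. Cdx2 was lower in the mutant at both stages. The part of these lists in the results was not tested.

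The families differed in how many genes could be seen in the yolk sac at all. A gene was kept for testing when the scanner software marked its yolk sac signal as well above background throughout 1 group or more. This held for 64 of the 128 members, 50%, against 50.1% of all genes. On all 12 arrays, 17 of 20 GST genes gave such a signal, 7 of 13 AKR1, 20 of 70 CYP, 3 of 10 SULT and 2 of 15 UGT genes. No GST gene was missing on every array, while 33 CYP, 10 UGT, 5 AKR1 and 4 SULT genes were. These 52 genes are 40.6% of the members, close to the 43.1% of all genes. The members stood further from the rest in the genes seen only in the reference: 28 of them, 21.9%, were well above background in Cy3 on all 12 arrays and in Cy5 on none, against 5.53% of all genes. The reverse, a member detected throughout a yolk sac group and on no array in the reference, did not occur.

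**Figure D1:**
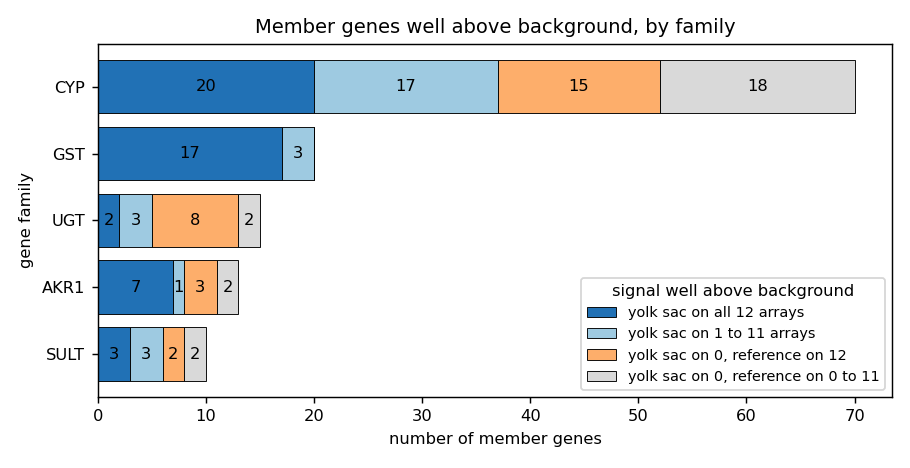
Number of member genes by family (bars), split by how many of the 12 arrays gave a yolk sac (Cy5) signal well above background and, where none did, by the neonatal reference (Cy3). All 20 GST genes had a yolk sac signal on at least 1 array, and 17 on all 12, while 33 of 70 CYP and 10 of 15 UGT genes had none.

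The P450 genes that were not seen included some known from hormone and drug responses, while others, such as Cyp3a11, were kept. None of the 3 CYP1 genes was kept: Cyp1a1, the classical target of the aryl hydrocarbon receptor, Cyp1a2 and Cyp1b1 were above background in Cy5 on 0 of 12 arrays, and Cyp1b1 was on all 12 in the reference. None of the 3 vitamin D enzymes was kept (Cyp24a1, which inactivates vitamin D, on 1 array, Cyp27b1 and Cyp2r1 on 0). Cyp7a1 and Cyp8b1, which act in bile acid synthesis, and Cyp19a1, the aromatase, were also on 0 arrays, whereas Cyp39a1 was on 12 and Cyp7b1 on 9. Of the steroid enzymes, Cyp17a1 (17-alpha-hydroxylase) was on all 12 arrays. Cyp11a1, which makes pregnenolone from cholesterol, was on 5, and these were the 3 arrays high in trophoblast transcripts and wild type E8.5 replicates 1 and 3. On those 3 arrays its log2 ratio was 0.13, 0.04 and 0.29, against -0.22 to 0.00 on the other 9. It was not kept and so was not tested. For a gene below background only a bound can be given. The reference signal was at least 7.6-fold above the yolk sac limit for Cyp3a16, a P450 of the young liver, at least 2.85-fold for Akr1c6 and 2.39-fold for Akr1c14, both hydroxysteroid dehydrogenases, and at least 1.07-fold to 2.27-fold for the other 25. These bounds compare channels of opposite dye and so include any dye bias.

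Against the neonatal reference, detoxification genes were mostly low in the yolk sac. The median over the 64 kept members of the mean of the 4 groups was -1.0, against 0.06 over all 13953 genes tested. In every one of the 4 groups, 30 members (46.9%) had a mean of -1 or lower, against 12% of all genes, and 0 members had a mean of 1 or higher in every group, against 7.8%. The 30 were 17 of 29 kept CYP genes, 5 of 17 GST, 4 of 5 SULT, 3 of 8 AKR1 and 1 of 5 UGT genes. These are descriptions, since the reference is a single RNA in a single dye and its own spread was not measured.

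The lowest 10 were liver enzymes for the most part. Cyp4a14, a fatty acid hydroxylase, lay between -4.83 and -4.42 on the 12 arrays. Cyp2d26 had a mean of -3.39 over the groups, Cyp2c40 also -3.39, Akr1b7 (an aldose reductase-like enzyme) -3.08, Sult1a1 (a phenol sulfotransferase) -3.03 and Cyp3a11, a main drug-metabolising P450 of adult mouse liver, -2.88. Cyp2a5, Cyp2c29, Cyp3a44 and Cyp2c70 followed at -2.86, -2.68, -2.65 and -2.63. Their Cy5 signals were faint, with a mean of 10.1 to 53.5 units above the local background for 9 of the 10, Cyp2d26 having 265.7. At such signals the offset of 50 units that was added in background correction pulls a ratio towards 0, so these values understate the size of the ratio. Sult1a1 was above background on 7 arrays only and Cyp3a44 on 11. Probes of Cyp2c40, Cyp2a5, Cyp3a11 and Cyp3a44 belong to clusters of near-identical genes, and transcripts listed for the probes named Cyp2c40, Cyp3a11 and Cyp2a4 came from more than 1 gene, so these names stand for a cluster.

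The highest 10 held 6 GST genes, of which 3 of the mu class and 1 of the theta class had means above 1. Gstm1, a mu-class transferase, had a mean of 1.41, Cyp2s1, a P450 found mainly outside the liver, 1.19, Gstm4 1.16, Gstm3 1.14 and Gstt3, of the theta class, 1.01. Akr1b8, an aldose reductase-like enzyme, followed at 0.40, Gstcd at 0.39, Cyp17a1 at 0.23, Cyp20a1, a P450 of unknown substrate, at 0.21 and Gstt2 at 0.21. The order depended on the offset: the Gstm4 probe was faint in the reference (15.9 units above local background), and with processed signals, which carry no offset, Gstm4 had a mean of 3.07 and Gstm1 one of 1.41. Within a family the values spread widely. In the mu class Gstm1, Gstm3 and Gstm4 were above the reference and Gstm2 (-1.47) and Gstm5 (-1.28) below it, and in the CYP2 family Cyp2s1 was the only one of 15 kept members above 0.

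**Figure D2:**
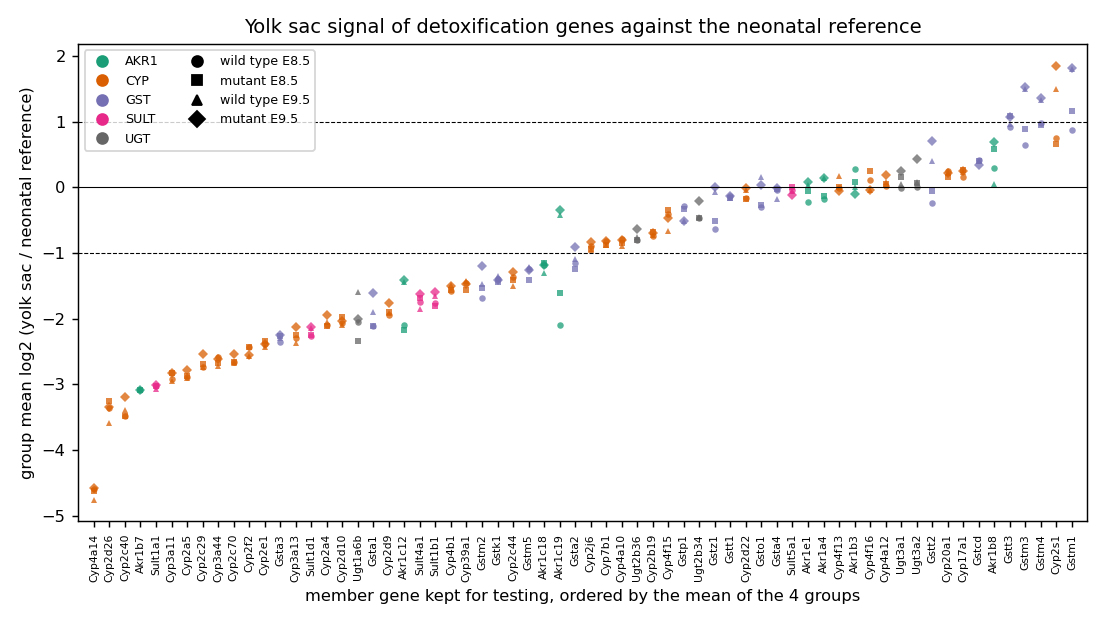
Group mean log2 ratio of yolk sac over neonatal reference (vertical axis) for each of the 64 kept members (horizontal axis, ordered by the mean of the 4 groups). Colour gives the family and the symbol the group. Dashed lines mark -1 and 1. All 4 symbols of 30 members lie at or below -1, and those of Gstm1, Gstm3, Gstm4 and Cyp2s1 straddle 1, with both E9.5 groups above both E8.5 groups.

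Stage was the main difference between groups. From E8.5 to E9.5 in wild type, 13 of the 64 kept members rose and 3 fell (limma over all 13953 genes, adjusted p under 0.05), 16 in all against 23.5% of all genes. The rising members were 20.3%, against 12.7% of all genes, and the falling ones 4.69%, against 10.8%. In the mutant 17 rose and 1 fell, 18 in all against 21.5%; 26.6% rose, against 10.9% of all genes, and 1.56% fell, against 10.6%. The median difference of the kept members was 0.03 in wild type and 0.10 in the mutant, against -0.01 in both over all genes. By family, 7 of 17 kept GST genes rose in wild type and 9 in the mutant, 4 and 3 of 8 AKR1 genes, 1 and 2 of 29 CYP genes, 1 and 3 of 5 UGT genes and 0 of 5 SULT genes in either. The split depended on the scaling. With each array only centred on its median, 13 rose and 0 fell in wild type and 23 rose and 0 fell in the mutant, while the median of all genes moved to 0.11 and 0.14. Over all genes, calls in either direction then went from 3279 to 1455 in wild type and from 2993 to 1753 in the mutant. In the mutant 17 rose and 4 fell with the processed signals of the scanner software, and 16 rose and 4 fell with the values of the authors' own table. Over all genes, 2740 and 2760 were called in the mutant with these values.

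The same 12 members rose in both genotypes, 18.8% of the kept members against 7.97% of all genes. They were 12 of the 13 that rose in wild type and 12 of the 17 that rose in the mutant: Akr1c19, Akr1c12, Akr1a4, Cyp2s1, Gstm1, Gstm2, Gstm3, Gstm4, Gsto1, Gstt2, Gstz1 and Ugt1a6b. In each genotype and for each of the 12, the highest E8.5 array lay below the lowest E9.5 array, and E9.5 was above E8.5 within each of the 3 scans. The 12 were picked by calls on these same arrays, so this separation is no further support. It was not counted over all genes. Both genotypes were scanned together, so the scans are shared. The arrays high in trophoblast transcripts bore on the mutant count: without these 3 arrays, 2 against 2 remained in the mutant, 9 members rose and 1 fell there (10 in place of 18), and 11 rose and 4 fell in wild type, where the calls of Akr1e1, Cyp2d26 and Gstm2 were lost. Over all genes the calls went from 2993 to 1332 in the mutant and from 3279 to 2491 in wild type, so the members lost calls along with the rest. The 8 mutant calls that were lost were those of Akr1a4, Cyp2c40, Gsta1, Gsta2, Gstm4, Gsto1, Ugt1a6b and Ugt2b34, and their differences were then 0.22 to 0.34.

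**Figure D3:**
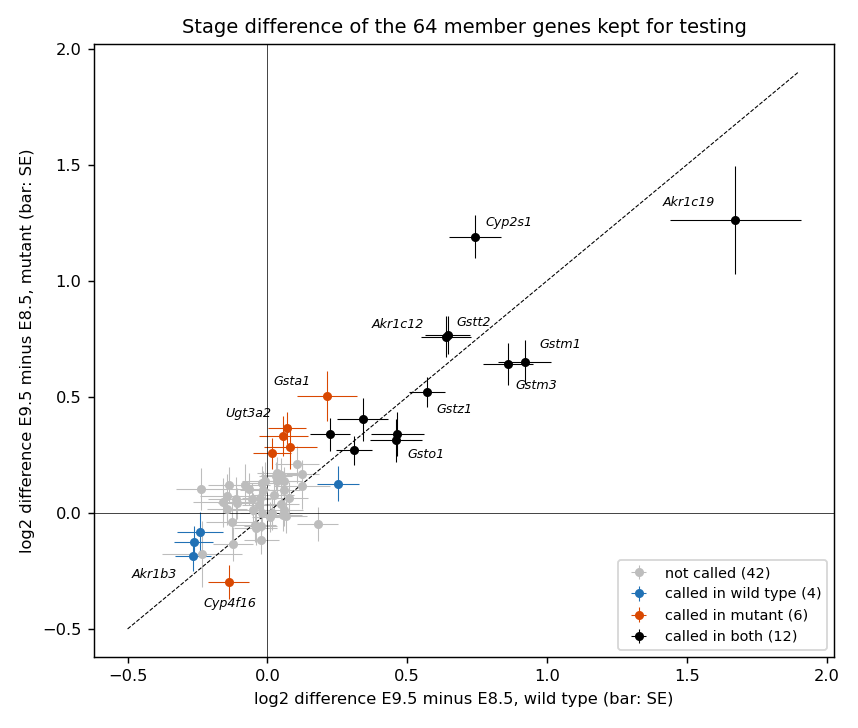
Log2 difference E9.5 minus E8.5 in wild type (horizontal axis) and in mutant (vertical axis) for the 64 kept members. Bars are standard errors of the limma fit, colour tells in which genotype a difference was called and the dashed line marks equal differences. The 12 members called in both lie to the upper right, from 0.22 to 1.67 in wild type and 0.27 to 1.26 in the mutant.

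Akr1c19, an aldo-keto reductase that acts on steroids and other alcohols and carbonyls, changed the most of all members in both genotypes by its brightest probe and as processed here. Its log2 ratio was -2.27, -1.64 and -2.38 on the wild type E8.5 arrays, -1.93, -1.31 and -1.58 in mutant E8.5, -0.44, -0.32 and -0.51 in wild type E9.5 and -0.92, 0.16 and -0.27 in mutant E9.5. All E8.5 arrays were below all E9.5 arrays, and the mutant E9.5 arrays were the most spread. The rise was 1.67 ± 0.23 (SE) in wild type (limma, adjusted p = 0.00019) and 1.26 ± 0.23 in the mutant (adjusted p = 0.00161). Within the 3 scans it was 1.84, 1.31 and 1.87 in wild type and 1.01, 1.47 and 1.31 in the mutant. A second Akr1c19 probe, also above background on all 12 arrays, differed by 1.04 and 1.01, a smaller size in the same direction. By that probe the mutant rise was below the 1.19 of Cyp2s1. Genotype made no called difference: mutant minus wild type was 0.49 ± 0.23 at E8.5 (adjusted p = 0.413) and 0.08 ± 0.23 at E9.5 (adjusted p = 0.957). At E8.5 the arrays overlapped.

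Across the 12 arrays, the 5 genes of 13952 most like Akr1c19 were Hal (histidine ammonia-lyase, Pearson r = 0.98), Prnp (the prion protein gene, 0.96), Itih2 (0.96), Eps8l3 (0.96) and Lass2 (now Cers2, a ceramide synthase, 0.96). Of these, Eps8l3 had stage differences of 0.68 in wild type and 0.73 in the mutant, and Hal 0.47 and 0.43. The arrays share stage, scan and reference, so the correlation is a description and has no p.

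Akr1c12, which lies beside Akr1c19 in a run of 8 Akr1c genes, rose by 0.64 ± 0.08 in wild type (adjusted p = 7.92e-05) and by 0.77 ± 0.08 in the mutant (1.82e-05). Its E8.5 arrays lay between -2.22 and -2.01 and its E9.5 arrays between -1.55 and -1.22, with no overlap. Its probe matches Akr1c13 as well. A second Akr1c12 probe, also above background on all 12 arrays, differed by 0.36 in wild type and 0.45 in the mutant. The third kept gene of the run, Akr1c18, which inactivates progesterone, differed by -0.13 and -0.04, and neither was called. Akr1c6, Akr1c14, Akr1c20 and Akr1c21 were below background in the yolk sac on every array. Of the single-gene branches, Akr1a4 (now Akr1a1, an aldehyde reductase) rose by 0.31 ± 0.06 in wild type and 0.27 ± 0.06 in the mutant, and Akr1e1 (a reductase of anhydrofructose) by 0.25 ± 0.08 in wild type, a call lost (at 0.20 to 0.25) when replicate 1 or 2 at E8.5, or replicate 1 or 3 at E9.5, of wild type was left out. Akr1b3, mouse aldose reductase, went the other way and fell by 0.27 on the log2 scale in wild type (SE 0.06, adjusted p = 0.00857), from 0.23, 0.36 and 0.25 to 0.02, -0.05 and 0.07. In the mutant its difference was -0.19 (adjusted p = 0.0536). With each array only centred on its median, the wild type difference was -0.08 and not called, and a second Akr1b3 probe above background on all 12 arrays differed by -0.14 in wild type and -0.04 in the mutant.

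The mu-class glutathione S-transferases moved together for the most part. The 7 mouse genes of this class lie in 1 uninterrupted run, and 5 were kept, of which Gstm1, Gstm2, Gstm3 and Gstm4 rose in both genotypes. Gstm1 measured 1.09, 0.70 and 0.85 in wild type E8.5, 1.15, 1.16 and 1.19 in mutant E8.5, 1.80, 1.74 and 1.87 in wild type E9.5 and 1.63, 1.82 and 1.99 in mutant E9.5. The stages did not overlap, and the lowest array was wild type E8.5 replicate 2, the one high in heart and neural transcripts. The rise was 0.92 ± 0.09 in wild type (limma, adjusted p = 1.69e-05) and 0.65 ± 0.09 in the mutant (0.000282), and with any 1 array left out it stayed between 0.83 and 1.02 in wild type and 0.56 and 0.74 in the mutant. A second Gstm1 probe differed by 0.78 and 0.60.

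Gstm3 followed the same course, from 0.86, 0.44 and 0.62 in wild type E8.5 to 1.52, 1.42 and 1.56 in wild type E9.5, and from 0.95, 0.91 and 0.80 to 1.48, 1.47 and 1.65 in the mutant. Its rise was 0.86 ± 0.09 (adjusted p = 2.24e-05) and 0.64 ± 0.09 (0.000231). Gstm4 rose by 0.34 ± 0.09 and 0.40 ± 0.09 and Gstm2 by 0.22 ± 0.07 and 0.34 ± 0.07. The smaller ones were less firm in wild type: of the wild type arrays, omitting replicate 2 at E8.5 or replicate 1 at E9.5 ended the Gstm4 call (0.30 and 0.33), and omitting replicate 1 or 3 at E8.5 or any at E9.5 ended the Gstm2 call (0.18 to 0.24). Gstm5 differed by 0.03 and 0.16 and was not called. Gstm6 and Gstm7 were above background on 1 and 2 arrays.

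Sequence is given for only some of the members called with stage or genotype. Shown as examples are the 250 bases before the RefSeq start of the 4 rising Gstm genes, Akr1c19 and Akr1b8. They are given 5′ to 3′ on the gene's strand in build GRCm38.p6: Gstm1 at chr3:108017974-108018223, Gstm2 at chr3:107986421-107986670, Gstm3 at chr3:107969175-107969424 and Gstm4 at chr3:108044860-108045109, all on the minus strand, and Akr1c19 at chr13:4233490-4233739 and Akr1b8 at chr6:34353896-34354145 on the plus strand. Capitals mark a match, on either strand, to 1 of 3 motifs. The first is GCGTG, the core bound by the aryl hydrocarbon receptor. Another is TGACNNNGC, the core of the antioxidant response element. The last is the TATA box, searched as TATAAA.
Gstm1: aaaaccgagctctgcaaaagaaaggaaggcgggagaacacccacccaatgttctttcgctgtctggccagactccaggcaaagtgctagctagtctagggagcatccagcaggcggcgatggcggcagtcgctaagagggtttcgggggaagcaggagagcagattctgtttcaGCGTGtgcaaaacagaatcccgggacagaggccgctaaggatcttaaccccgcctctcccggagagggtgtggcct
Gstm2: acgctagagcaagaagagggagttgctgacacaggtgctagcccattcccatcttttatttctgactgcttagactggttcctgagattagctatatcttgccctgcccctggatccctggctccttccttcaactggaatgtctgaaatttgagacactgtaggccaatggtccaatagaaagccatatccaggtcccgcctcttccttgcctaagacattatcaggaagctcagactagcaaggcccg
Gstm3: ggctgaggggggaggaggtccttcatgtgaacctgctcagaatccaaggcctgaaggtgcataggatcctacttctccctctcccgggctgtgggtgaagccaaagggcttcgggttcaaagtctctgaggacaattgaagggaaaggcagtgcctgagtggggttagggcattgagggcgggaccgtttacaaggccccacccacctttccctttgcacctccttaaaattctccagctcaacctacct
Gstm4: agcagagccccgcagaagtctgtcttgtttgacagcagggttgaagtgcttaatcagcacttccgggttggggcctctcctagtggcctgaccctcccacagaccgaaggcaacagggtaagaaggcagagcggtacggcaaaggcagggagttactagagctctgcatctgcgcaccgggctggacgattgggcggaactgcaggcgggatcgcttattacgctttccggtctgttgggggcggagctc
Akr1c19: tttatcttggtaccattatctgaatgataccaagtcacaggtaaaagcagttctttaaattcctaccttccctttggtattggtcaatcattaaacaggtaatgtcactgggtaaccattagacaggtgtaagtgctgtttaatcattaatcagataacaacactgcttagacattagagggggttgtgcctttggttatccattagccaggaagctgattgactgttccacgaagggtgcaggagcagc
Akr1b8: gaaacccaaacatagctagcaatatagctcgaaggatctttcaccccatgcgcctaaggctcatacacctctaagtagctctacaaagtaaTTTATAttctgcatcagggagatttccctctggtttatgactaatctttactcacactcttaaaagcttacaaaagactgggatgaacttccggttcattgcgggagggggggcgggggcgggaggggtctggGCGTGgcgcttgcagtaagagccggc
Gstm1 held GCGTG 76 bases before its start, and Akr1b8 held GCGTG at 26 and TATAAA, on the other strand, at 159. No match lay in the windows of Gstm2, Gstm3, Gstm4 and Akr1c19. RefSeq lists 2 starts for Gstm1 and for Gstm4, and the one furthest upstream was used. Any pair of the 4 Gstm windows shared an identical run of at most 10 bases. Of the 103 members with a RefSeq promoter, GCGTG was in 18.4%, TGACNNNGC in 3.88% and TATAAA in 27.2%, against 28.3%, 10.1% and 13% of 27025 genes. The shares were alike in the 50 of these that were kept (18%, 4% and 26%) and the 53 that were not (18.9%, 3.77% and 28.3%).

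**Figure D4:**
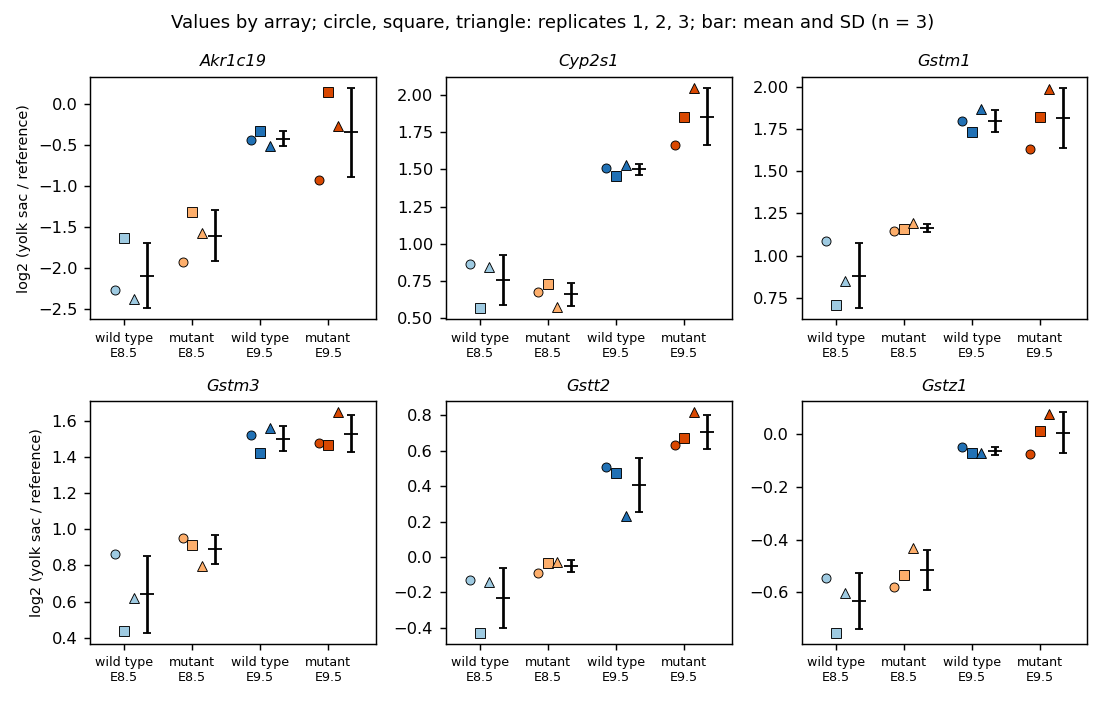
Log2 ratio of yolk sac over reference on each of the 12 arrays for 6 members that rose in both genotypes. Points are arrays (circle, square and triangle for replicates 1, 2 and 3), bars are the mean and SD of 3, and each panel has its own vertical scale. In every panel the 3 E9.5 points of a genotype lie above its 3 E8.5 points.

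The other GST classes were divided. Gstt2, of the theta class, went from -0.13, -0.43 and -0.14 to 0.51, 0.47 and 0.23 in wild type and from -0.09, -0.04 and -0.03 to 0.63, 0.67 and 0.82 in the mutant, a rise of 0.64 ± 0.09 (adjusted p = 0.000188) and 0.76 ± 0.09 (4.7e-05). Gstz1, which isomerises maleylacetoacetate in tyrosine breakdown, rose by 0.57 ± 0.06 and 0.52 ± 0.06. Gsto1, of the omega class, rose by 0.46 ± 0.09 in wild type and 0.31 ± 0.09 in the mutant. Omitting any mutant array at E8.5, or replicate 3 at E9.5, ended the mutant call of Gsto1 (0.22 to 0.33). The theta genes Gstt1 and Gstt3, the pi gene Gstp1, Gstk1 and Gstcd had differences between -0.23 and 0.06 in both genotypes and were not called. In the alpha class, Gsta1 (0.50 ± 0.11, adjusted p = 0.00403) and Gsta2 (0.33 ± 0.09) rose in the mutant, and in wild type they differed by 0.21 and 0.06, not called. The Gsta1 and Gsta2 probes each match both genes. Omitting mutant replicate 2 at either stage, or replicate 3 at E9.5, ended the Gsta2 call (0.27 to 0.31), and Gsta3 and Gsta4 were not called.

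Of 29 kept P450 genes, Cyp2s1 alone rose in both genotypes. Its log2 ratio was 0.86, 0.57 and 0.85 in wild type E8.5, 0.68, 0.73 and 0.58 in mutant E8.5, 1.51, 1.46 and 1.53 in wild type E9.5 and 1.66, 1.85 and 2.05 in mutant E9.5. No E8.5 array reached an E9.5 array, and all mutant E9.5 arrays were above all wild type E9.5 arrays. The rise was 0.74 ± 0.09 in wild type (adjusted p = 7.99e-05) and 1.19 ± 0.09 in the mutant (1.36e-06). Within scans it was 0.65, 0.89 and 0.68 and then 0.99, 1.12 and 1.47. The other P450 calls were small. Cyp4f15 and Cyp4f16, of a subfamily that hydroxylates fatty acids and leukotrienes, were each called in a single genotype. Cyp4f16 fell by 0.30 in the mutant and differed by -0.14 in wild type, and Cyp4f15 fell by 0.26 in wild type and differed by -0.12 in the mutant. Cyp2d26 fell by 0.24 in wild type. Cyp2c40 rose by 0.28 in the mutant (adjusted p = 0.0484). Cyp4f15 was kept through mutant E8.5 alone: in wild type it was well above background on 1 array at E8.5 and 0 at E9.5, so its wild type difference was taken at signals mostly at background and supports nothing. Omitting replicate 3 of wild type E8.5 ended its call (-0.22). The Cyp2d26 call was lost with any 1 of 9 arrays left out, which were all but replicate 2 of both E9.5 groups and replicate 1 of mutant E9.5, at -0.28 to -0.20. The Cyp2c40 call was lost with any 1 of 7, which were replicates 1 and 3 of both E8.5 groups, replicate 1 of wild type E9.5 and replicates 2 and 3 of mutant E9.5, at 0.19 to 0.28. With each array only centred on its median, Cyp4f15, Cyp2d26 and Cyp4f16 differed by -0.20, -0.07 and -0.20, and none was called.

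Among the glucuronosyltransferases, Ugt1a6b, which conjugates small phenols, rose by 0.46 ± 0.10 in wild type (adjusted p = 0.00297) and 0.34 ± 0.10 in the mutant (0.0202). Its probe matches transcripts of Ugt1a1, Ugt1a5 and Ugt1a10 too, which share their last exons with it, so the value is one of the Ugt1a locus. Omitting mutant replicate 3 at either stage, or replicate 2 at E9.5, ended the mutant call (0.27 to 0.30). Ugt3a2, which uses sugars other than glucuronic acid, and Ugt2b34 rose in the mutant, by 0.37 ± 0.07 (adjusted p = 0.00182) and 0.26 ± 0.07 (0.0149), and in wild type they differed by 0.07 and 0.01. Of the mutant arrays, omitting replicate 3 at E8.5 or replicate 2 at E9.5 ended the Ugt2b34 call (0.24 each time). No kept sulfotransferase was called in either genotype: Sult1b1, which acts on phenols and thyroid hormone, differed by 0.11 and 0.21, and Sult1a1, Sult1d1, Sult4a1 and Sult5a1 by -0.12 to 0.12. Sult1d1 was above background on 5 arrays, all of E9.5, and Sult1a1 on 7, mutant E8.5 replicate 3 and those of E9.5. Their small differences therefore do not show a lack of change. Group means of Sult1d1 spanned -2.26 to -2.13, and -5.41 to -4.30 with processed signals, which carry no offset.

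Between genotypes few members differed. At E8.5, 0 of 64 kept members were called, against 1.43% of all genes (0.71% higher and 0.717% lower), and 9 (14.1%) had an unadjusted p under 0.05, against 12.4% of all genes. At E9.5, 3 members (4.69%) were called, against 1.99% of all genes (0.91% higher and 1.08% lower): Akr1b8 and Ugt3a2 were higher in the mutant and Ugt1a6b was lower. Of the members, 18 (28.1%) had an unadjusted p under 0.05 there, against 11.8% of all genes. Mutant minus wild type was above 0 for 51 of 64 kept members at E9.5, against 49.9% of all genes, and for 36 of 64 at E8.5, against 51.1%. These comparisons and those of stage use the same arrays.

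Akr1b8, an aldose reductase-like enzyme that reduces aldehydes, measured 0.37, 0.30 and 0.20 in wild type E8.5, 0.54, 0.52 and 0.69 in mutant E8.5, 0.08, 0.04 and 0.03 in wild type E9.5 and 0.50, 0.63 and 0.93 in mutant E9.5. The mutant arrays were above the wild type arrays at both stages, without overlap. Mutant minus wild type was 0.63 ± 0.09 at E9.5 (limma, adjusted p = 0.0015) and 0.30 ± 0.09 at E8.5 (adjusted p = 0.147, not called). Within scans it was 0.42, 0.59 and 0.90 at E9.5 and 0.17, 0.23 and 0.49 at E8.5. The highest array of each mutant group was replicate 3, which was also high in trophoblast transcripts, as was wild type E9.5 replicate 3. Without these 3 arrays the E9.5 difference was 0.50 (adjusted p = 0.0172). The E9.5 call was kept with any 1 array left out (0.51 to 0.73), and the E8.5 difference passed the threshold without mutant E9.5 replicate 3 (adjusted p = 0.0445). With each array only centred on its median, the E9.5 difference was 0.60 and not called (adjusted p = 0.173).

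Ugt3a2 measured -0.01, -0.09 and 0.13 in wild type E8.5, 0.06, 0.10 and 0.06 in mutant E8.5, 0.12, 0.00 and 0.13 in wild type E9.5 and 0.41, 0.35 and 0.56 in mutant E9.5. The mutant E9.5 arrays were above all others, which overlapped one another. Mutant minus wild type was 0.36 ± 0.07 at E9.5 (adjusted p = 0.0131) and 0.06 ± 0.07 at E8.5 (0.799). Its signal was faint, at a mean of 18.3 units above local background and above background on 11 arrays, and the offset holds its ratios near 0. At E9.5, omitting replicate 2 of wild type or replicate 3 of the mutant ended the call (0.31 and 0.30), as did omitting the 3 arrays high in trophoblast transcripts (0.32). Its relative Ugt3a1 was kept through mutant E9.5 alone, where it was above background on all 3 arrays, so this detection follows from the filter and supports nothing. Its difference was 0.20 ± 0.06 at E9.5 (adjusted p = 0.111) and 0.16 ± 0.06 at E8.5 (0.233), and neither was called.

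Ugt1a6b measured -1.93, -2.24 and -1.99 in wild type E8.5, -2.24, -2.32 and -2.48 in mutant E8.5, -1.59, -1.69 and -1.49 in wild type E9.5 and -2.18, -1.93 and -1.91 in mutant E9.5. At E9.5 every mutant array was below every wild type array, and at E8.5 wild type replicate 2 lay at the level of the mutant. The gene was lower in the mutant by a difference of -0.42 ± 0.10 at E9.5 (adjusted p = 0.0346), and -0.29 ± 0.10 at E8.5 (0.181) was not called. Within scans the difference was -0.60, -0.24 and -0.41 at E9.5. This call was the least firm of the 3: it ended with the omission of any wild type array of E9.5, mutant replicate 2 of either stage or mutant replicate 1 of E9.5 (-0.47 to -0.33), and of the 3 arrays high in trophoblast transcripts (-0.42).

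**Figure D5:**
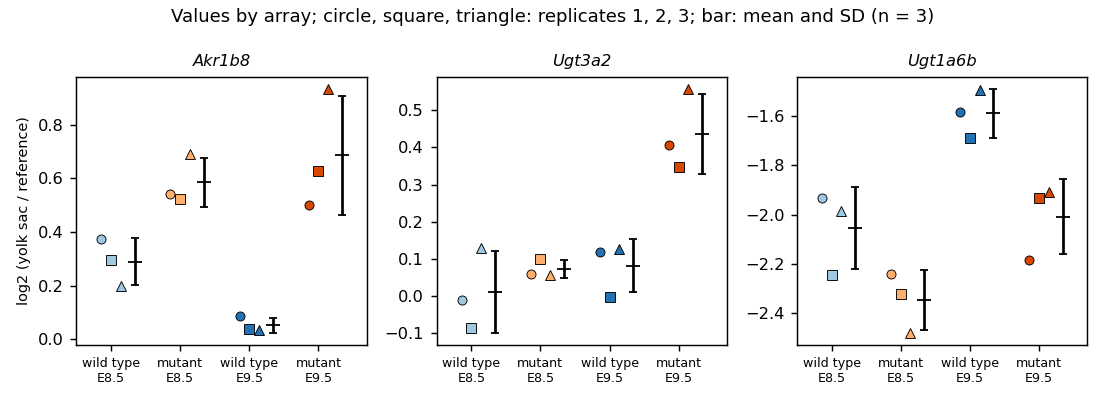
Log2 ratio of yolk sac over reference on each of the 12 arrays for the 3 members called between genotypes at E9.5. Points are arrays (circle, square and triangle for replicates 1, 2 and 3) and bars are the mean and SD of 3. The mutant E9.5 arrays lie above wild type E9.5 for Akr1b8 (0.50 to 0.93 against 0.03 to 0.08) and Ugt3a2 (0.35 to 0.56 against 0.00 to 0.13), and below for Ugt1a6b (-2.18 to -1.91 against -1.69 to -1.49).

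Some members just missed the threshold at E9.5 and depended on single arrays. Without wild type E8.5 replicate 2, the array high in heart and neural transcripts, 6 members were called in place of 3, Cyp2s1 (0.35), Gstm2 (0.27) and Gstt2 (0.30) being added, all higher in the mutant. That array is not part of the E9.5 comparison, so the differences themselves were unchanged. Without mutant E9.5 replicate 1, 5 were called, with Cyp2s1, Gstm2 and Cyp2d26 added and Ugt1a6b lost, and without wild type E9.5 replicate 2 Akr1b8 alone was called. Over all genes, 366, 213 and 145 were called in these 3 cases, against 277 when no array was left out. With all arrays, Cyp2s1 had a difference of 0.35 ± 0.09 (adjusted p = 0.0767). The test of whether the genotype difference changed between stages called 0 members and 0 of all 13953 genes (limma), with 7 members and 800 genes at an unadjusted p under 0.05. This difference of differences was, for Cyp2s1, 0.45 ± 0.13 (adjusted p = 0.529) and, for Akr1b8, 0.34 ± 0.13 (0.772). So the members that rose in a single genotype are not shown to differ between genotypes in their rise.

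Other genes of the pathway were read with 6 lists of 91 genes outside the member families, of which 74 were tested. In at least 1 contrast 34 of them were called, against 30.9% of all genes, and 23 of the 64 kept members. From E8.5 to E9.5, 24 of the 74 rose and 4 fell in wild type, and 23 rose and 4 fell in the mutant. Of all genes 12.7% rose and 10.8% fell in wild type, and 10.9% rose and 10.6% fell in the mutant, which is also the background for each list that follows. Between genotypes the transporter gene Slc22a6 was the one call at each stage.

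Among other enzymes of the first step, 6 of 17 tested rose in wild type and 5 in the mutant, and none fell. Maob, a monoamine oxidase, rose by 1.44 ± 0.12 in wild type and 1.74 ± 0.12 in the mutant (adjusted p = 2.23e-06 and 4.53e-07), and Fmo1, a flavin-containing monooxygenase, by 1.17 ± 0.08 and 1.44 ± 0.08. The epoxide hydrolase Ephx2 rose by 0.40 and 0.42 and the fatty aldehyde dehydrogenase Aldh3a2 by 0.42 and 0.52. The list of P450 electron donors had 8 tested genes and also held the haem oxygenases, which are not such donors. In it, 2 rose and 1 fell in wild type, and 1 rose in the mutant. Haem oxygenase Hmox1 rose in both genotypes (0.31 and 0.26). The electron donor Por differed by 0.20 and 0.08 and was not called. In wild type ferredoxin Fdx1 rose by 0.28 and cytochrome b5 Cyb5b fell by 0.17. Neither was called in the mutant (0.13 and -0.10).

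Of 11 tested conjugation and cofactor genes, 4 rose and 1 fell in each genotype. Mgst2, a microsomal glutathione transferase of another protein family, rose by 0.86 ± 0.07 and 0.76 ± 0.07 (adjusted p = 2.23e-06 and 7.25e-06), its relative Mgst3 by 0.51 and 0.52 and the thiopurine methyltransferase Tpmt by 0.71 and 0.69. Ugdh, which makes the UDP-glucuronic acid used by UGT enzymes, fell by 0.24 and 0.25. Among 13 tested NRF2 target and redox genes, 5 rose and 2 fell in wild type, and 5 rose and 3 fell in the mutant. Glutathione peroxidases Gpx3 (0.49 and 0.56) and Gpx4 (0.35 and 0.31) and glutathione synthetase Gss (0.40 and 0.39) rose, and thioredoxin reductase Txnrd1 fell by 0.19 and 0.35. The other falls were those of Gpx2 in wild type (-0.21) and of Gclm (-0.30) and Gsr (-0.21) in the mutant.

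Of 12 tested sensors and partners, 4 rose in wild type and 3 in the mutant, and none fell. Nr1h4, the bile acid receptor, rose by 0.58 ± 0.06 and 0.51 ± 0.06 (adjusted p = 3.35e-05 and 9e-05), the retinoid X receptor gene Rxra by 0.43 and 0.37 and Ahr, which encodes the aryl hydrocarbon receptor, by 0.18 and 0.26. Maff, a small MAF partner of NRF2, rose by 0.31 in wild type and differed by 0.28 in the mutant (adjusted p = 0.0608). Of 13 transporters tested, 3 rose in wild type and 5 in the mutant. The bile salt pump Abcb11 rose by 0.38 and 0.31, the efflux pump Abcg2 by 0.32 and 0.20, and Abcc2 by 0.25 in the mutant, against -0.04 in wild type. Slc22a6, an organic anion uptake transporter, was higher in the mutant by 0.61 ± 0.10 at E8.5 (adjusted p = 0.00667) and 0.69 ± 0.10 at E9.5 (0.00178), and it also rose with stage by 0.49 and 0.56.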

How the data were processed

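RNA of 12 yolk sac samples was measured on 12 Agilent 2-colour arrays. Per the file headers, the authors extracted them with Feature Extraction 9.5.1.1, and the deposited files give mean and local background intensity per channel, flags, and a log10 ratio of processed signals, which served as an alternative. The authors also deposited 1 table for the series, whose log2 ratios are centred on each probe's median, as the values show. Genome build and alignment are not given in the sources used here.

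Intensities were background-corrected (normexp, offset 50) and loess-normalized within arrays, without control spots, in R 4.3.3 with limma 3.58.1. Outlier spots and spots over 20 units below local background were set missing. Where a group had a missing spot, its mean used the remaining arrays (41 missing values over 13953 genes). A gene was read from its probe with the highest mean Cy5 signal and kept if Cy5 was flagged well above background in all 3 samples of a group. Group means over 12 arrays were fitted with lmFit and eBayes, and 5 contrasts were adjusted over all 13953 genes (Benjamini-Hochberg, called if under 0.05). Values after ± are standard errors (3 arrays a group) unless called SD. Biological replicates are as labelled, with no pooling stated, and 3 arrays a group limit the precision. On simulated data for the wild type stage comparison (13953 genes), 55 of 100 changes of 0.3 and 100 of 100 changes of 1 were recovered, with 5 false calls. Noise was drawn independently for each array and 200 genes were changed, against 3279 called in the data. These figures check the fit on such data and do not give its recovery or false calls in the real data. RefSeq tables (GRCm38.p6) gave current names for all 128 members, of which 4 had changed, and promoters for 103 members.

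Members and lists were chosen with earlier results of these data known. Named are members called in a contrast, Akr1c19 and the 5 genes most like it, the 10 highest and 10 lowest ratios, members on no reference array, and up to 4 called genes of each list. Other members are named for their family or their detection, among them Cyp11a1, and were chosen after their values were seen. So were the list genes Por, Gpx2, Gclm and Gsr. Alternatives tried were no background correction, processed signals, median centring, no or a stricter filter, and the mean of probes. Further ones were a slide block (2 numbers in the headers), a replicate block and only the groups compared. The rest were the authors' table, the averaging of replicates 2 and 3 in the values used here, and leaving out arrays.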

Additional observations from a re-analysis of the deposited data

How the results depend on the processing

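Of 37 calls of members, 25 were kept with each array left out in turn, 20 under all other settings tried for them (11 or 12 each), and 0 changed sign. At E8.5 the genotype count rose from 0 to 1 with processed signals (Ugt3a1, a faint probe), and leaving out arrays in turn gave 0 to 1. At E9.5 it went from 3 to 1 with processed signals, 0 with median centring, 1 with the authors' table and 1 without the 3 arrays high in trophoblast transcripts, an alternative chosen after seeing the data. Over all genes the E9.5 count went from 277 to 167, 26, 177 and 126 in these cases. Leaving out arrays in turn gave 1 to 6 members, and 145 to 366 of all genes. The mutant stage count went from 18 to 10 without those 3 arrays. The count of members at least 2-fold above the reference in every group went from 0 to 1 without background correction (Gstm4), 2 with processed signals (Gstm4 and Gstt3), 1 with median centring (Gstm1) and 1 with replicates 2 and 3 averaged into 1 sample (Gstm4), another alternative chosen after seeing the data. With that averaging 0, 3, 15, 16 and 0 members were called in the 5 contrasts. The cause of these shifts was not tested. With processed signals, which carry no offset, the faint probe of Ugt3a2 went from 0.36 to 1.35 at E9.5 and was not called (adjusted p = 0.243). The replicate number matches the scan. The slide numbers of the headers, as a block, gave 0, 3, 16, 19 and 0. In 16 of 18 same-numbered pairs deviations correlated above 0.1, and 12 of 12 arrays correlated best with their own number. The labels state no block, so the main fit does not model this likeness. The 2 pairs that fell short do not show it to be absent. With the replicate block 0, 3, 16, 21 and 0 members were called in the 5 contrasts, against 0, 3, 16, 18 and 0 without it. Over all genes the block gave 291, 356, 3916, 3476 and 1 calls, against 199, 277, 3279, 2993 and 0. Signals near background limit what can be said of the 52 members not seen in the yolk sac.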
